A study of Mus musculus with 28 samples.

Results

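The tripartite motif (Trim) genes were taken as every gene whose probeset on the array carried a single symbol beginning with Trim and a digit, with the brightest probeset where a gene had several. This gave 57 Trim genes of 19272 named genes, each with 1 probeset. A filter on dim probesets (signal above the array's own 40th percentile on at least 3 of the 28 arrays) left 41 of the 57 for testing, beside 14325 genes in all. The other 16, among them Trim30e-ps1, Trim38, Trim75, Trim80 and Trim55, had means between 5.95 and 7.22 on the log2 scale and no array-to-array range wider than 1.81, and they were not tested.

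TRIM proteins share a RING domain, usually a ubiquitin ligase, followed by B-box and coiled-coil domains, and differ in their last domain. Many act in innate immunity: TRIM25 ubiquitinates the RNA sensor RIG-I, TRIM21 is a cytosolic antibody receptor, TRIM56 acts in DNA and RNA sensing, and the rodent Trim12 and Trim30 genes are the relatives of primate TRIM5, which restricts retroviruses. Others have nuclear roles, such as the chromatin co-regulators TRIM24, TRIM28 and TRIM33, or act on the cytoskeleton, such as TRIM36 and TRIM9. Dendritic cells and macrophages are known to express interferon-inducible members of the family.

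The arrays measured total RNA of cells sorted from mouse kidney for CD45, CD11c and MHC class II, markers of renal dendritic cells, after which the RNA was amplified. Homeostatic cells came from healthy kidneys of 4 C57BL/6 and 4 BALB/c mice, and cells of cortex and medulla were hybridised separately, which gave 4 arrays in each of 4 groups. Graft cells came from 3 kidney allografts taken 3 days after transplantation, in which donor cells (strain BALB/c, sorted as CD45.2) and host cells (strain C57BL/6, sorted as CD45.1) were again separated by region, with 3 arrays in each of 4 groups. The host cells therefore carry a CD45 allele that the labels do not give for the homeostatic C57BL/6 mice, and that difference cannot be told apart from the graft in any comparison of the 2. Ages, sexes and an isograft or sham group were not given in the sources used here. All values below are log2 array signals and all differences are log2 differences; a gene passed where its limma p, adjusted by the Benjamini-Hochberg method over the 14325 genes, was under 0.05, and errors of differences are standard errors.

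Some facts about the arrays bear on the Trim values. H2-Ea, a class II gene that C57BL/6 mice do not transcribe, read 6.25 to 6.76 on the homeostatic C57BL/6 arrays, 12.90 to 13.33 on the BALB/c arrays and 12.37 to 13.00 on the donor arrays. The arrays labelled host read 10.18, 11.78 and 11.18 in cortex and 9.63, 9.41 and 6.45 in medulla, so that 5 of the 6 lay above every homeostatic C57BL/6 array and went against their strain label, and host below means the arrays so labelled; H2-Ea was chosen for this check after its values were seen. In graft against homeostatic cells, 19 of 21 leukocyte marker genes and 12 of 12 dendritic cell markers fell, while 14 of 14 epithelial markers rose. The mean leukocyte marker signal was 11.30 ± 0.08 (SD, n = 4) in C57BL/6 medulla and 8.59 ± 0.53 (SD, n = 3) in host medulla. In such bulk samples fewer cells of a type and less RNA per cell cannot be told apart. The homeostatic BALB/c arrays also had the narrowest spread of signal over probesets, with SDs of 1.46 to 1.67 against 1.65 to 1.84 on the other arrays.

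The largest differences fell in a Trim cluster on chromosome 7. RefSeq (GRCm38.p6) lists 11 coding genes in this run, from Trim6 to Trim30d, of which 4 had a probeset with 1 symbol: Trim6, Trim12a, Trim30a and Trim30d. The promoters of the 3 that were tested, and of Trim21, which lies elsewhere on the chromosome, are shown because they are antiviral members on chromosome 7 that hold an interferon-response-like motif and whose array values are given or compared below. Each window holds 250 bases before the RefSeq transcript start and the first 30 bases of the transcript, all on the minus strand, 5′ to 3′, and the capitals mark matches, on either strand, to GAAA followed after any 2 bases by GAAA.
Trim12a, chr7:104315466-104315745: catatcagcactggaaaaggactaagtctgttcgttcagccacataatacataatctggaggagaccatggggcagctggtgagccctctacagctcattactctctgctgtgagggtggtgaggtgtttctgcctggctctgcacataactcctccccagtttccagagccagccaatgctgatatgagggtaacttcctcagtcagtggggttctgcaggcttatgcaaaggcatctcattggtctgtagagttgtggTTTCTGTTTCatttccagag
Trim30a, chr7:104465164-104465443: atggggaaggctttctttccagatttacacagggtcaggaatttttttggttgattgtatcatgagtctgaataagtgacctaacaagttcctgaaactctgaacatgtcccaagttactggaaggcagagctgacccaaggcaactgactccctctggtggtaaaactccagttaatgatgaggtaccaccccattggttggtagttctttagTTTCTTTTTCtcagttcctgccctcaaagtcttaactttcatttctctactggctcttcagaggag
Trim30d, chr7:104507820-104508099: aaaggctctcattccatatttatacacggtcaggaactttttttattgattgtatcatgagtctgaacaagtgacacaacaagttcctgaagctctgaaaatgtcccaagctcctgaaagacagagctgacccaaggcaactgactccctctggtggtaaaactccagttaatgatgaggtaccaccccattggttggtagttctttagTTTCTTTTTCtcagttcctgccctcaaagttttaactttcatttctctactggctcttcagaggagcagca
Trim21, chr7:102565453-102565732: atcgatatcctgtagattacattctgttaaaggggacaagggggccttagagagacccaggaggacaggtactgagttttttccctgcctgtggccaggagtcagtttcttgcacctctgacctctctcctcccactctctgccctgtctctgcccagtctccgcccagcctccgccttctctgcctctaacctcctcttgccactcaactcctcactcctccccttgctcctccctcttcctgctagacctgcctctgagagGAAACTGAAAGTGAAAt

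The match began 36 bases before the start in Trim30a and 41 before it in Trim30d, and at base 11 of the transcript in Trim12a. Trim21 had 2 overlapping matches, the first at base 14 of the transcript. The motif was searched on both strands over 300-base windows, and 6 of the 44 Trim genes with a window held it: Trim2, Trim12a, Trim21, Trim26, Trim30a and Trim30d. That is 13.64% of these members, beside 3.99% of all 27025 genes with a window and 3.44% of all 32851 windows. The gamma-interferon-activated-site pattern TTCNNNGAA was in 5 of the 44, Trim15, Trim31, Trim38, Trim45 and Trim46, that is 11.36% of them, beside 9.55% of all genes and 8.3% of all windows. The Trim30a and Trim30d windows had 93.5% identical bases, whereas those of Trim12a and Trim30a had 49.8%. These are matches of letters in the reference genome, and their use in these cells was not measured. The Trim12 genes and the Trim30 genes each form a set of close paralogues, and whether the probesets share signal with paralogues that have no probeset of their own was not tested.

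Trim12a showed the widest strain difference of the family. Its homeostatic C57BL/6 arrays read 10.61, 10.16, 11.20 and 9.85 in cortex and 9.73, 10.87, 9.44 and 10.91 in medulla. The homeostatic BALB/c arrays read 6.34, 6.46, 6.36 and 6.55 in cortex and 6.54, 6.46, 6.63 and 6.38 in medulla. No array of one strain reached the range of the other, and the means were 6.47 in BALB/c and 10.35 in C57BL/6, a fitted difference of -3.88 ± 0.41 (adjusted p = 4.25e-06). No BALB/c array lay above its own 40th percentile, the level of the filter. Trim12a passed the filter only through C57BL/6 and host arrays, so a lower value in BALB/c was built into its selection. Counted from that percentile, the signal was at least 6.95-fold lower in BALB/c. The donor arrays, also of BALB/c origin, read 6.50, 6.82 and 5.87 in cortex and 6.78, 6.54 and 6.26 in medulla. All 14 arrays of BALB/c origin thus lay between 5.87 and 6.82, where a further fall could not be seen, and the difference between donor and homeostatic BALB/c cells was -0.01 ± 0.45 (adjusted p = 0.99). The strain difference was present in cortex alone (-4.02) and in medulla alone (-3.74). Whether BALB/c sequence differs from the reference under the Trim12a probes was not tested.

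Trim12a fell in the arrays labelled host, unevenly. Host cortex read 10.21, 7.36 and 6.81 for grafts 1 to 3, and host medulla read 9.25, 7.82 and 6.11. The first graft gave the highest value in both regions, and the array of host cortex from that graft lay inside the C57BL/6 range, while 2 host arrays lay inside the BALB/c-origin range. The host mean of 7.93 differed from the homeostatic C57BL/6 mean by -2.42 ± 0.45 (adjusted p = 0.000485). Leukocyte marker signal on the same host arrays was 11.00, 10.25 and 9.26 in cortex and 9.16, 8.11 and 8.49 in medulla, and its part in the difference was not tested. With the 5 host arrays that carried H2-Ea left out, a setting chosen after the data were seen, the 1 remaining host medulla array differed from C57BL/6 medulla by -4.13 ± 0.50. That array's spread was taken from the other groups. That array was the lowest of the host arrays for Trim12a, at 6.11, and the 1 host array at the C57BL/6 level of H2-Ea. It also had the lowest signal of the leukocyte gene Ptprc in the series, 8.97, whose part in its Trim12a value was not tested.

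Trim30d, an interferon-inducible relative of Trim30a, was also lower in BALB/c. Homeostatic C57BL/6 arrays read 11.67, 11.80, 12.04 and 10.94 in cortex and 11.69, 11.55, 11.60 and 11.52 in medulla. Homeostatic BALB/c arrays read 7.12, 10.87, 10.59 and 9.94 in cortex and 6.94, 8.94, 8.37 and 7.60 in medulla. The strains did not overlap, although the highest BALB/c array, at 10.87, lay close to the lowest C57BL/6 array, at 10.94, and both BALB/c arrays of the mouse numbered replicate 1 were the lowest of their groups. The difference was -2.80 ± 0.44 (6.98-fold lower, adjusted p = 0.000191), with -1.98 in cortex and -3.63 in medulla. Donor arrays read 9.03, 7.64 and 8.56 in cortex and 7.14, 6.89 and 6.52 in medulla, and host arrays read 11.89, 11.09 and 9.82 in cortex and 9.00, 8.09 and 7.00 in medulla. Host cortex overlapped with C57BL/6 cortex, whereas every host medulla array lay below every C57BL/6 array. Host cells were lower than homeostatic C57BL/6 cells by -2.12 ± 0.48 (adjusted p = 0.00305), a value that was -0.68 in cortex alone (adjusted p = 0.827) and -3.56 in medulla alone (adjusted p = 0.00081).

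Trim30a, the best known of the mouse Trim30 genes and a regulator of Toll-like receptor signalling, was bright in nearly every array. C57BL/6 arrays read 11.95, 12.02, 12.33 and 11.94 in cortex and 12.00, 11.90, 12.11 and 12.07 in medulla, and BALB/c arrays read 11.93, 12.22, 11.66 and 11.63 in cortex and 8.63, 11.57, 11.44 and 11.26 in medulla. One BALB/c medulla array, replicate 1, lay far below the others. The strain difference of -0.75 ± 0.43 did not pass (adjusted p = 0.192), and it was -0.40 ± 0.37 without that array. Within arrays, Trim30d minus Trim30a averaged -2.50 ± 0.59 (SD) over the 4 BALB/c mice and -0.44 ± 0.23 (SD) over the 4 C57BL/6 mice, a difference of -2.06 that had the smallest p the 2-sided exact permutation test over mice allows, 0.0286. Thus the strain difference of the 2 neighbours was unequal, which says nothing of either gene alone. The pair was taken with the strain values of both genes known, so this p is no independent support.

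**Figure D1:**
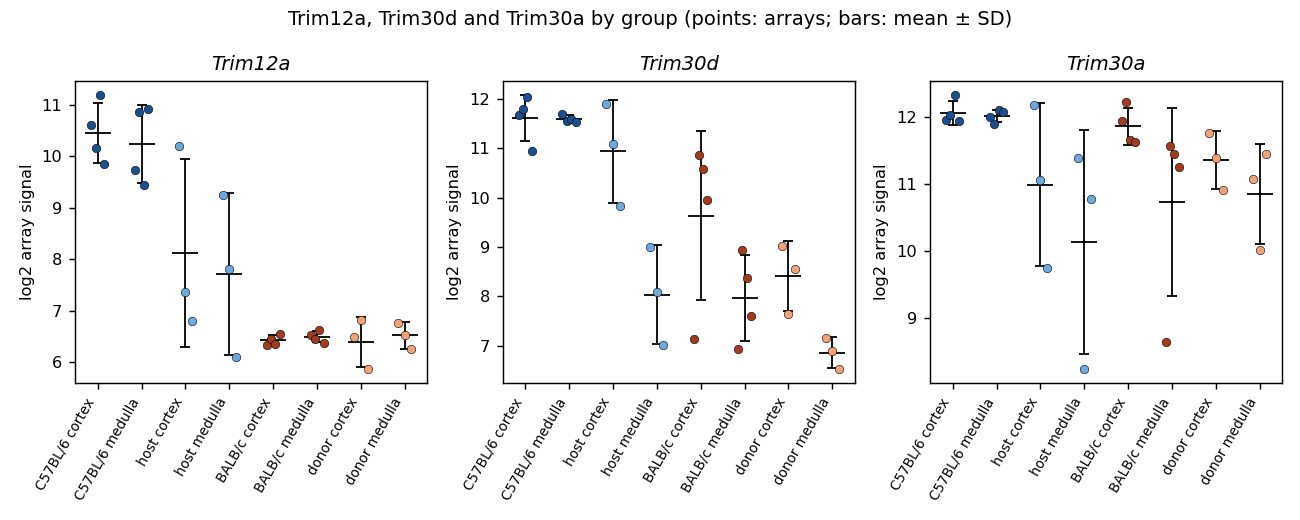
Log2 array signal (y axis, a separate scale in each panel) of Trim12a, Trim30d and Trim30a in the 8 groups (x axis), with 1 point per array and bars for the mean and SD of the 4 homeostatic or 3 graft arrays. The 14 Trim12a points of BALB/c origin lie between 5.87 and 6.82, and the host points spread from 6.11 to 10.21.

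Of the 41 tested Trim genes, 13 passed between homeostatic BALB/c and C57BL/6 cells, where 29.9% of all genes tested passed. Besides Trim12a and Trim30d, 4 were lower in BALB/c, and 7 were higher. Of the 7, Trim9 and Trim69 passed the filter on dim genes only through BALB/c arrays, so a difference in that direction was built into their selection. Likewise Trim12a passed it only through C57BL/6 and host arrays, so its lower value in BALB/c was built in. By direction the background was 22.2% higher and 7.69% lower. Over all genes this comparison depended on signal level: of genes with a mean below 8, 36.9% were higher and 1.94% lower in BALB/c, whereas of genes with a mean of 9 and above, 2.25% were higher and 18.3% lower.

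The 4 further members that were lower in BALB/c had overlapping arrays. Dendritic cell markers moved the same way in this comparison, 7 of 12 lower and none higher, with a median of -0.75. The marker Itgax read 8.43 ± 0.97 (SD, n = 4) in BALB/c medulla against 11.09 ± 0.21 (SD, n = 4) in C57BL/6 medulla. In cortex it read 10.47 ± 0.93 (SD, n = 4) against 11.32 ± 0.31 (SD, n = 4), and the arrays overlapped. The part of these markers in the Trim differences was not tested. Trim59, a membrane-anchored member, ranged over C57BL/6 arrays from 7.19 to 10.40 with a median of 9.05, and over BALB/c arrays from 7.02 to 7.95 with a median of 7.36, a difference of -1.51 ± 0.44 (adjusted p = 0.0134). Trim23, which carries an ARF GTPase domain and acts in antiviral autophagy, had medians of 9.32 and 8.03 and differed by -1.36 ± 0.38 (adjusted p = 0.00991). Trim36, a microtubule-associated ligase, had medians of 9.05 and 7.79 and differed by -1.11 ± 0.25 (adjusted p = 0.00314). Trim25 read 9.59 to 10.61 in C57BL/6 and 8.81 to 10.26 in BALB/c, a difference of -0.60 ± 0.20 (adjusted p = 0.0299). Its call was kept in 6 of 11 other settings. It was lost with 1 value per mouse, a second quantile normalization, the groups compared alone and each region alone. Of the 28 fits without 1 array, 6 lost it. Trim59 was also lost with 1 value per mouse and in each region alone, Trim23 in each region alone and Trim36 in cortex alone.

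The 7 members that were higher in BALB/c were Trim62, Trim9, Trim67, Trim69, Trim15, Trim40 and Trim68. Their differences ran from 0.35 to 0.59. Trim62 ranged from 7.32 to 7.71 in C57BL/6 and from 7.75 to 8.40 in BALB/c, so that the arrays did not overlap (0.59 ± 0.11, adjusted p = 0.000653). Trim9, a neuronal ligase, ranged from 6.83 to 7.04 and from 7.15 to 7.68 (0.53 ± 0.10), and Trim69 from 6.91 to 7.12 and from 7.20 to 7.97 (0.48 ± 0.09). Only 3 arrays of Trim9 and 5 of Trim69, all of homeostatic BALB/c cells, lay above the 40th percentile. Of the 7, 6 had a mean below 8, where 36.9% of all genes tested were higher. Trim15 and Trim40, with Trim10, Trim26 and Trim39 the tested members of the chromosome 17 group beside the MHC, rose by 0.39 and 0.38. They lost their calls in 7 and 8 of the 28 fits without 1 array. Both were also lost with a second quantile normalization and in each region alone. Trim15 was further lost with the mouse as a random block and the groups compared alone, and Trim40 with 1 value per mouse.

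**Figure D2:**
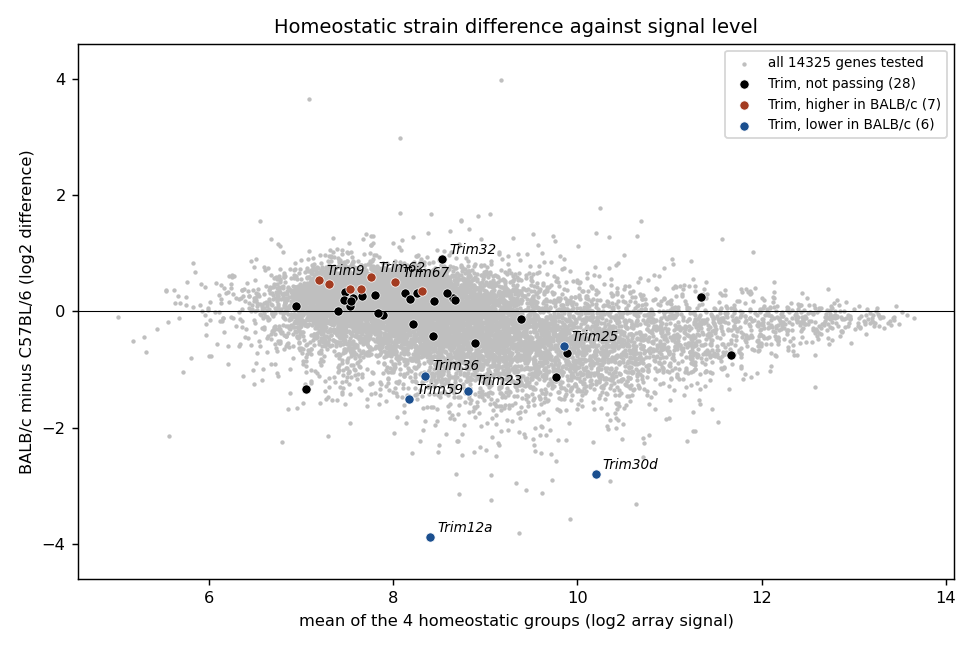
Difference between homeostatic BALB/c and C57BL/6 cells (y axis, log2) against the mean of the 4 homeostatic groups (x axis, log2 array signal) for 14325 genes (grey) and 41 Trim genes (black, not passing; red, higher; blue, lower in BALB/c). Trim12a at -3.88 and Trim30d at -2.80 lie apart from the 7 higher members, whose differences are 0.59 or less and of which 6 have a mean below 8.

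By role, of the 8 tested antiviral members, 3 were lower in BALB/c (Trim12a, Trim30d and Trim25) and none was higher. Over all genes tested 7.69% were lower and 22.2% higher. The median difference was -0.65, beside 0.11 over all genes. Trim21, Trim25, Trim30a and Trim30d had means of 9 and above. In that class of genes the median was -0.40, and 18.3% were lower and 2.25% higher. Trim21 differed by -0.71 ± 0.43 (adjusted p = 0.216), Trim14 by 0.23 ± 0.16 (adjusted p = 0.277), Trim26 by 0.32 ± 0.18 (adjusted p = 0.19) and Trim56 by 0.18 ± 0.23 (adjusted p = 0.566). None of the 4 chromatin co-regulators passed in this or any of the 9 comparisons; Trim33 differed by -1.13 ± 0.45 (adjusted p = 0.0626) and Trim24 by -0.54 ± 0.22 (adjusted p = 0.0699). Of 18 genes of the RIG-I and STING pathways in which TRIM proteins act, 3 fell: Map3k7, which encodes TAK1 (-1.28 ± 0.33), Ddx58, which encodes RIG-I (-1.13 ± 0.35), and Ifih1, which encodes MDA5 (-1.15 ± 0.36). Of 23 interferon-response genes 9 fell and none rose, led by Ifit3 (-2.03 ± 0.49, adjusted p = 0.00463) and Mx1 (-1.57 ± 0.43, adjusted p = 0.00929). The list of interferon-response genes and that of the RIG-I pathway share Ddx58 and Ifih1. Both counts stand beside the 7.69% of all genes tested that were lower.

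In the graft, no Trim gene passed between donor and host cells, where 0.698% of all genes tested passed; 3 of the 41 had an unadjusted p under 0.05 by limma, and with array weights 1 passed, Trim30d (-2.07 ± 0.46, adjusted p = 0.0151). With equal weights Trim30d differed by -1.85 ± 0.51 (adjusted p = 0.136), Trim13 by -1.63 ± 0.77 (adjusted p = 0.725) and Trim12a by -1.47 ± 0.48, with a 95% interval of -2.46 to -0.48 (adjusted p = 0.306). In medulla with the 5 host arrays that carried H2-Ea left out, Trim12a differed by 0.41 ± 0.52. The Trim12a interval in the full set does not carry the error of the homeostatic strain difference of -3.88, and no Trim12a donor array lay above the filter's level. Whether the strain difference changed was tested only as the interaction below. Trim13, an endoplasmic-reticulum ligase, read 6.57, 9.26 and 6.04 in host cortex and 11.30, 9.69 and 6.10 in host medulla, against 5.96 to 7.82 in the donor arrays, so that 3 host arrays were high and 3 were not. Pooled over homeostatic and graft cells, 3 members passed between BALB/c and C57BL/6 origin, where 4.86% of all genes did (3.69% higher and 1.17% lower): Trim12a (-2.67 ± 0.32), Trim30d (-2.33 ± 0.34) and Trim62 (0.30 ± 0.08). Trim62 lost its call in 18 of the 28 fits that left out 1 array. For Trim12a the direction was built into its selection by the filter.

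The origin comparison differed between homeostatic and graft cells, tested as an interaction, for 5 members (9.63% of all genes tested, 2.64% higher and 6.99% lower). Trim12a had an interaction of 2.41 ± 0.63 (adjusted p = 0.0242), a call lost without host cortex replicate 3 and in each region alone. Its BALB/c-origin arrays lay below the filter's level in both settings, so the interaction rests on the fall in the arrays labelled host. Trim9 (-0.61 ± 0.15), Trim62 (-0.59 ± 0.17), Trim69 (-0.55 ± 0.13) and Trim68 (-0.49 ± 0.15) went the other way. Trim9 and Trim69 passed the filter only through homeostatic BALB/c arrays, so this direction was built into their selection. The Trim68 call was lost in 19 and the Trim62 call in 9 of the 28 fits without 1 array. With 1 value per mouse none of the 5 passed.

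Graft cells differed from homeostatic cells, over both origins, in 10 members, 9 lower and 1 higher (33.3% of all genes tested passed, 15% higher and 18.3% lower). The higher one was Trim2, a member of the NHL-repeat group known for its role in neurons. It ranged over the 16 homeostatic arrays from 6.65 to 7.22 with a median of 6.97, and over the 12 graft arrays from 6.94 to 7.95 with a median of 7.48, a difference of 0.50 ± 0.09 (adjusted p = 0.000253). No homeostatic array of Trim2 lay above its own 40th percentile, and Trim2 passed the filter only through 8 graft arrays, so a rise was built into its selection. The donor arrays, at 7.56, 7.95 and 7.23 in cortex and 7.88, 7.26 and 7.52 in medulla, all lay above the BALB/c arrays, which reached 7.22 (0.57 ± 0.13, adjusted p = 0.00239). Host arrays read 7.09, 7.39 and 7.64 in cortex and 7.44, 7.54 and 6.94 in medulla and overlapped with C57BL/6 arrays (0.43 ± 0.13, adjusted p = 0.024). The epithelial marker signal moved the same way, from 8.52 ± 0.12 (SD, n = 4) in C57BL/6 cortex to 9.57 ± 0.29 (SD, n = 3) in host cortex and from 8.36 ± 0.24 (SD, n = 4) in BALB/c cortex to 9.53 ± 0.51 (SD, n = 3) in donor cortex, and its part in the Trim2 difference was not tested. The other NHL-repeat members, Trim3, Trim32 and Trim71, passed in neither direction.

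Trim36 fell in graft cells. Its homeostatic C57BL/6 arrays ranged from 7.89 to 9.48 and the host arrays from 6.33 to 8.03, with overlap between the lowest of the former and the highest of the latter (-1.56 ± 0.28, adjusted p = 0.000296). The homeostatic BALB/c arrays ranged from 7.01 to 8.60 and the donor arrays from 6.89 to 7.48, a difference that did not pass on its own (-0.65 ± 0.28, adjusted p = 0.0688). Over both origins the difference was -1.11 ± 0.19 (adjusted p = 0.000186), and Trim36 kept its call in all 10 other settings and all 28 fits without 1 array. Trim30d (-1.64 ± 0.34) and Trim12a (-1.21 ± 0.32) also fell over both origins, and for Trim12a the donor difference was -0.01 and the host difference -2.42. Trim14, which acts with the mitochondrial sensor adaptor MAVS, ranged from 8.12 to 9.28 in homeostatic and from 7.84 to 8.53 in graft arrays (-0.48 ± 0.12, adjusted p = 0.00497). The remaining 5, Trim15, Trim62, Trim65, Trim69 and Trim9, fell by 0.21 to 0.38 on the log2 scale. For Trim69 and Trim9, which passed the filter only through homeostatic BALB/c arrays, a fall was built into the selection. The Trim9 call was lost with the mouse as a random block, with 1 value per mouse and in 14 of the 28 fits without 1 array. The leukocyte marker genes fell in the same comparison with a median of -1.40, and their part in the falls of Trim36, Trim30d, Trim12a and Trim14 was not tested.

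**Figure D3:**
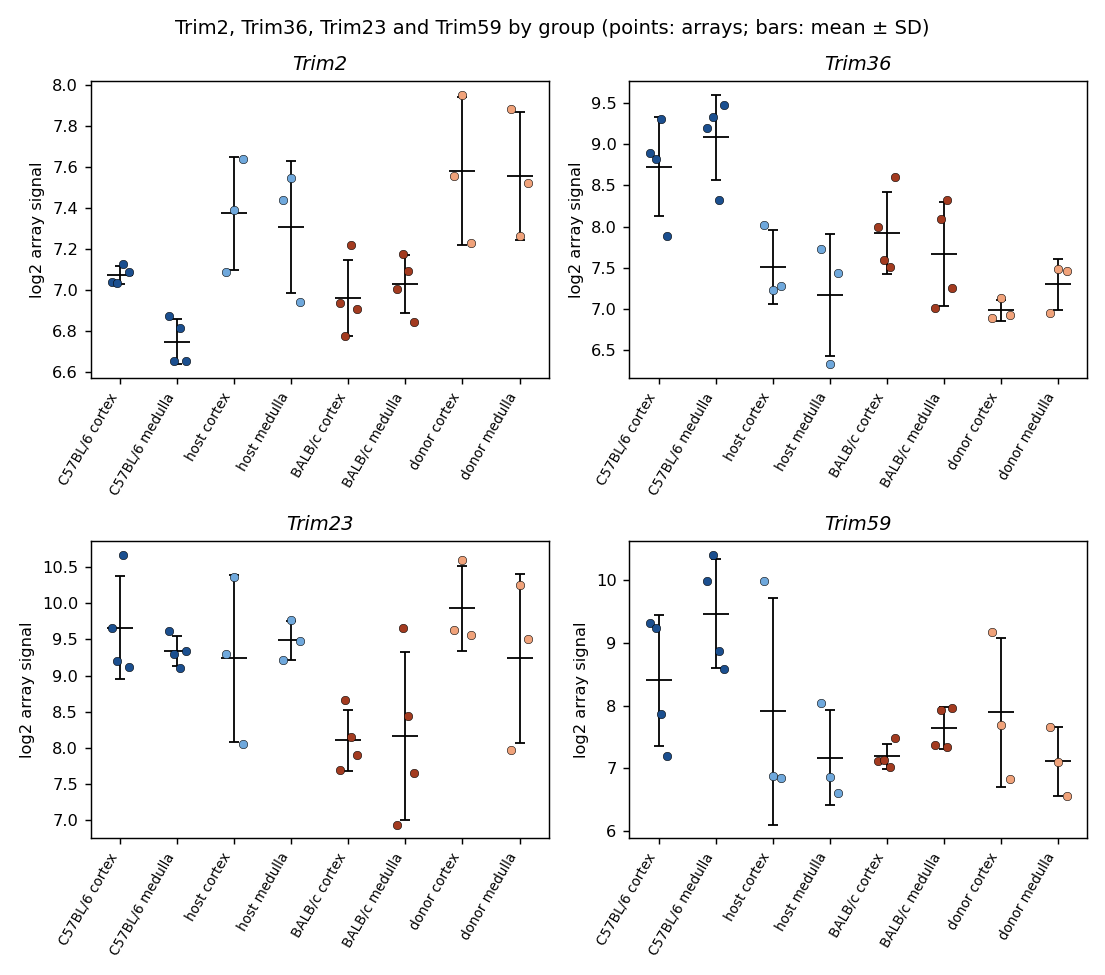
Log2 array signal (y axis, a separate scale in each panel) of Trim2, Trim36, Trim23 and Trim59 in the 8 groups (x axis), with 1 point per array and bars for the mean and SD. All 6 donor points of Trim2 lie above the BALB/c points, Trim36 is lower in graft than in homeostatic groups, and the BALB/c points of Trim23 lie mostly below the donor points.

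Donor cells taken alone differed from homeostatic BALB/c cells in 13 members, 2 higher and 11 lower (33.9% of all genes tested passed, 11.3% higher and 22.6% lower). Trim23 rose with Trim2. Trim23 read 7.69, 8.67, 8.15 and 7.91 in BALB/c cortex and 6.94, 9.65, 8.44 and 7.65 in BALB/c medulla, against 9.63, 10.60 and 9.56 in donor cortex and 7.96, 10.26 and 9.50 in donor medulla. In cortex every donor array lay above every BALB/c array, while in medulla the groups overlapped. The difference over both was 1.45 ± 0.41 (adjusted p = 0.0103). The call was lost in medulla alone and with array weights, and was kept in all 28 fits without 1 array. The donor comparison shares its 8 BALB/c arrays, with the opposite sign, with the homeostatic strain comparison. The 11 lower members were Trim8, Trim9, Trim10, Trim14, Trim15, Trim40, Trim62, Trim65, Trim67, Trim68 and Trim69, with differences from -0.67 (Trim15) to -0.30 (Trim68). No donor array of Trim9 or Trim69 lay above the filter's level. Both passed it only through homeostatic BALB/c arrays, so a fall was built into their selection. Of the 11, 9 had a mean below 8, a class in which 34.4% of all genes tested were lower in donor cells and 4.35% higher. None passed in medulla alone, and Trim12a, Trim30a, Trim30d, Trim21 and Trim25 did not pass here; Trim30d differed by -1.17 ± 0.48 (adjusted p = 0.0617), and by -1.34 ± 0.48 (adjusted p = 0.0430) without BALB/c medulla replicate 1. Of the RIG-I and STING pathway genes 3 of 18 rose in donor cells, Map3k7 (1.55 ± 0.36), Ddx58 (1.51 ± 0.38) and Traf6 (1.22 ± 0.37).

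Host cells differed from homeostatic C57BL/6 cells in 5 members (15.2% of all genes tested passed, 8.43% higher and 6.74% lower): Trim12a, Trim30d, Trim36 and Trim30a were lower and Trim2 was higher. Trim30a read 12.17, 11.05 and 9.74 in host cortex and 11.38, 8.23 and 10.78 in host medulla, below the C57BL/6 arrays except in 1 array of cortex, with a difference of -1.48 ± 0.46 (adjusted p = 0.0321) that was lost in 6 of the 28 fits without 1 array. Trim25 (-0.61 ± 0.22, adjusted p = 0.0631) and Trim21 (-1.06 ± 0.47, adjusted p = 0.146) did not pass. Of the 23 interferon-response genes 8 fell, led by Oas2 (-2.19 ± 0.32), Oas1a (-1.83 ± 0.37) and Mx1 (-2.24 ± 0.46), and of the RIG-I and STING genes 5 of 18 fell and 1 rose. Of the 21 leukocyte marker genes 18 fell, with a median of -1.96, beside 8 of 9 macrophage markers that fell with a median of -3.41, 3 of 9 T and NK cell markers that rose and 14 of 14 epithelial markers that rose, and their part in the falls of the Trim genes was not tested. With the 5 H2-Ea-carrying host arrays left out, the remaining medulla array was compared with C57BL/6 medulla. Besides Trim12a, Trim30d (-4.59 ± 0.95), Trim59 (-2.84 ± 0.81), Trim36 (-1.64 ± 0.54) and Trim30a (-1.24 ± 0.74) read lower there, and Trim2 differed by 0.19 ± 0.25. Trim36, Trim30a and Trim2 did not keep their host calls in this setting. Other members also moved, such as Trim33 by -2.32 ± 0.92 and Trim26 by 0.89 ± 0.34. These values rest on 1 array, which had the lowest Ptprc signal of the series, 8.97.

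**Figure D4:**
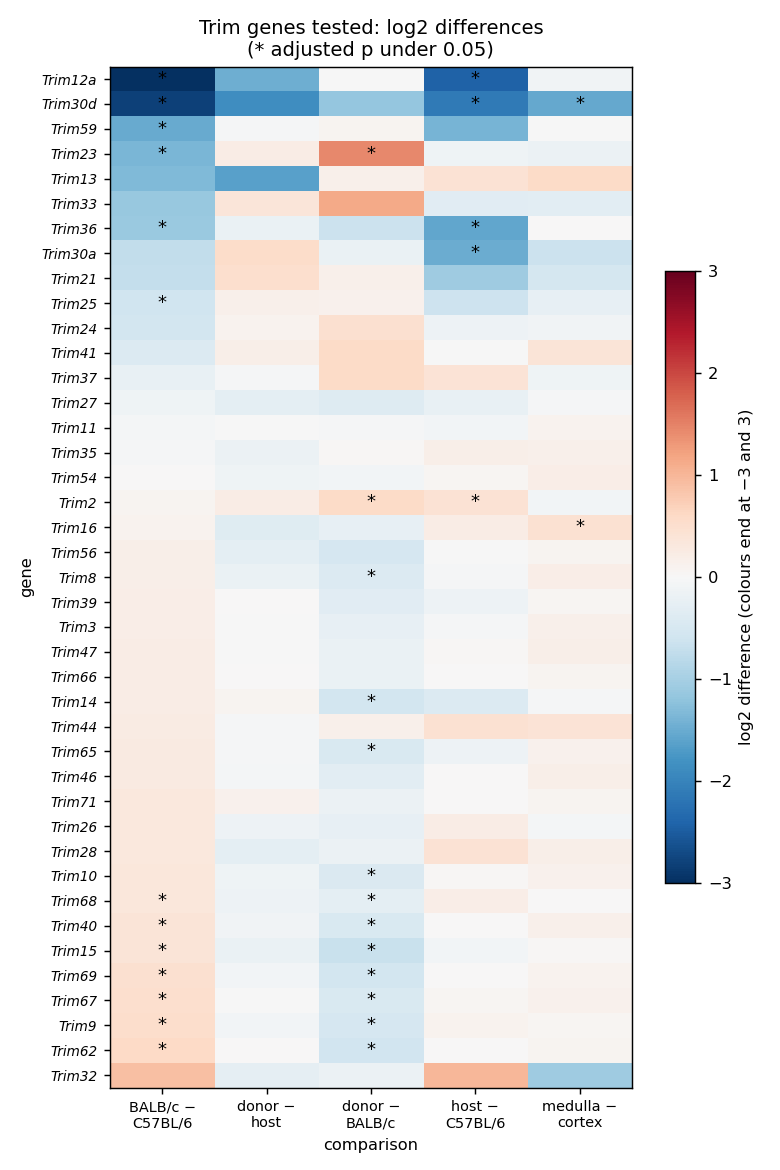
Log2 differences of the 41 tested Trim genes (y axis, ordered by the homeostatic strain difference) in 5 comparisons (x axis), with colours that end at -3 and 3 and stars where the adjusted p was under 0.05. The donor minus host column has no star. The BALB/c minus C57BL/6 and donor minus BALB/c columns share the homeostatic BALB/c arrays.

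Between regions, averaged over all 4 kinds of cell, 2 members passed (5.42% of all genes tested, 2.14% higher and 3.28% lower). Trim30d was lower in medulla than in cortex (-1.54 ± 0.34, adjusted p = 0.00552). Its group means were 11.61 ± 0.47 and 11.59 ± 0.07 (SD, n = 4) in C57BL/6 cortex and medulla, 9.63 ± 1.72 and 7.96 ± 0.88 (SD, n = 4) in BALB/c, 10.93 ± 1.04 and 8.03 ± 1.00 (SD, n = 3) in host and 8.41 ± 0.70 and 6.85 ± 0.32 (SD, n = 3) in donor cells, so that the means were close in C57BL/6 cells and lower in medulla in the other 3 kinds. The test of whether the regional difference changed with the graft gave -1.39 ± 0.67 (adjusted p = 0.466). Leukocyte markers also fell in medulla, 4 of 21, and 13 of 14 proximal tubule markers did, and their part was not tested. Trim16, a stress-response ligase without a RING domain, was higher in medulla (0.46 ± 0.12, adjusted p = 0.0289), a call lost with the mouse as a fixed block. No member passed for a regional difference that changed with the graft, where 1.52% of all genes tested passed and 7 of the 41 had an unadjusted p under 0.05 by limma.

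Across the 9 comparisons 20 of the 41 tested Trim genes passed at least once and 21 never did. Among those 21 were Trim44, which read 9.23 to 12.39, and Trim32, an NHL-repeat member whose arrays ranged from 6.58 to 11.50 with a within-group SD of 1.45, wider than the SD of 0.81 between group means. Of 7 tested relatives that share TRIM domains, 1 was higher in BALB/c (Cmya5, 0.32 ± 0.09), where 22.2% of all genes were. In donor cells 3 of the 7 fell, Mefv (-0.63 ± 0.16), Mid1 (-0.89 ± 0.27) and Cmya5 (-0.29 ± 0.10), and Mid2 rose (0.88 ± 0.30), where 22.6% of all genes fell and 11.3% rose.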

How the data were processed

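The authors deposited log2 intensities of 28 arrays, made with RMA and oligo per the submitters' processing notes (no version named). Probesets were named from the platform table: of 22549, 20646 had 1 symbol, 551 several and 1352 none. Of 59 probesets naming a Trim gene, 2 had several symbols and were left out. Means of all 8 groups were fitted with limma 3.58.1 in R 4.3.3 (20 residual degrees of freedom), contrasts were averaged over regions, and p-values were adjusted over 14325 genes. Precision is limited by how many arrays each group has. On simulated data for graft against homeostatic cells over 14325 genes, 80% of genes changed by log2 1 and 97% changed by log2 2 were recovered, with 15 false calls. The simulation changed 200 genes and gave arrays of the same mouse or graft no correlation. It covered no other comparison, so recovery in those with fewer arrays is not known.

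Mouse numbers join arrays of the same animal or graft and so pair them; deviations of arrays of the same graft correlated by 0.147 on average, against -0.073 for different grafts, and by -0.009 and -0.001 within BALB/c and C57BL/6 mice. Named genes were the members that passed, the antiviral and co-regulator members, the brightest and dimmest, and the smallest adjusted p of other lists. Alternatives were a mouse block, 1 value per mouse, other filters, renewed quantile normalization, robust variance estimation, the compared groups alone, each region alone, array weights and each array left out. Promoters came from RefSeq. Members and lists were chosen with earlier results of these data known.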

Additional observations from a re-analysis of the deposited data

Results flagged for a closer look

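Within the homeostatic groups of 4 arrays, 80 pairs of a passing member (20 members) and a group were examined for an array far from the others. Of these, 3 were found, where chance gives about 1 in 20. Trim30a read 8.63 in BALB/c medulla replicate 1, against 11.26 for the nearest array of that group. Trim10 read 6.97 in C57BL/6 cortex replicate 2, against 7.31 for the nearest array. Trim8 read 7.79 in C57BL/6 medulla replicate 2, against 7.41 for the nearest array.

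The effect of origin differed between homeostatic and graft cells, by the interaction term, for Trim12a (2.41), Trim62 (-0.59), Trim68 (-0.49), Trim69 (-0.55) and Trim9 (-0.61). For Trim69 and Trim9 the direction was built into their selection by the filter. For Trim12a no array of BALB/c origin lay above the filter's level, so its interaction rests on the fall in the arrays labelled host. The Trim12a call was lost with 1 value per mouse and in each region alone.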

How the results depend on the processing

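No difference that passed changed sign in any setting. Of those that did not pass, donor minus host turned from -1.47 to 0.41 for Trim12a and from -1.63 to 0.12 for Trim13 with the 5 H2-Ea-carrying host arrays left out. Counts of passing Trim genes that moved by over 1.5 times were these. Without the filter on dim genes they were 8 (origin), 26 (homeostatic strain), 16 (graft), 24 (donor) and 12 (interaction); with the stricter filter they were 8 (strain), 4 (graft), 3 (donor), 1 (interaction) and 1 (region). In cortex alone they were 7 (strain), 1 (host) and 0 (interaction), and in medulla alone 5 (strain), 3 (graft), 0 (donor) and 0 (interaction). Array weights, added after the data were seen, gave 5 (origin), 1 (donor against host), 17 (graft), 8 (host) and 1 (region by graft, Trim69 at 0.45). The compared groups alone gave 8 (donor), a second quantile normalization 2 (interaction) and 1 (region), 1 value per mouse 0 (interaction), and the host arrays without H2-Ea alone 3 (host).

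The mouse as a random replicate block gave 12 for the strain, 9 for the graft and 6 for the host comparison and left the other counts as they were; as a fixed replicate block, which only the comparisons within mice allow, it gave 1 for the region and 0 for donor against host and region by graft.

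With each array left out in turn the counts ran from 2 to 6 (origin), 10 to 18 (strain), 0 to 1 (donor against host), 9 to 14 (graft), 9 to 16 (donor), 3 to 6 (host), 2 to 9 (interaction), 1 to 2 (region) and 0 to 0 (region by graft). The cause of these moves was not tested beyond the number of arrays or genes each setting keeps. Trim12a and Trim30d kept their strain and origin calls in every setting and every fit without 1 array. For Trim12a the direction of these calls was built into its selection by the filter.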
